A study of Mus musculus with 21 samples.

Results

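The Nogo receptor system of the mouse dentate gyrus was read from 9 genes: the receptor *Rtn4r* (NgR1) and its relatives *Rtn4rl1* and *Rtn4rl2*, the co-receptors *Lingo1*, *Ngfr* and *Tnfrsf19*, and the myelin ligands *Rtn4*, *Mag* and *Omg*. These are 9 of 18193 genes named on the array. Members were all probe sets of the array annotated to these symbols, 19 of 45101, and 15 of them passed a filter on low values that kept 27022 probe sets. All 3 probe sets of *Ngfr* and 1 of the 3 of *Tnfrsf19* did not pass. *Rtn4r* is the transgene of the study, so its level checks the labels, and the other genes show whether the pathway moved with it.

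Total RNA of the dentate gyrus was measured on 21 Affymetrix mouse arrays, 3 in each of 7 groups. In set 1, bitransgenic mice (pTRE/NgR) on water had doxycycline removed to induce NgR, a further bitransgenic group had doxycycline in the diet throughout, and monotransgenic NgR mice without tTA were on water. Experiment 2 held bitransgenic mice on water that never had doxycycline and monotransgenic mice on water. Set 3 held bitransgenic and monotransgenic mice, for which the labels give no treatment. Its bitransgenic mice are counted below as transgene on, a state that the labels do not give. In this tet-off design the tTA protein drives the pTRE promoter of the NgR transgene unless doxycycline is present. The labels of set 1 say that its monotransgenic mice lack tTA, and those of experiment 2 and set 3 are taken here to be of the same kind. Against monotransgenic mice, NgR expression and the presence of tTA therefore cannot be told apart. Doxycycline removed against the diet compares bitransgenic mice alone, which differ in doxycycline. The labels do not name the promoter that drives tTA, the age, the sex or the strain, and do not say that each array came from a separate animal, so p-values measure the spread between these arrays.

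The Nogo receptor is a leucine-rich repeat protein held on the neuronal surface by a lipid anchor. It binds 3 ligands of myelin, Nogo-A (encoded by *Rtn4*), MAG and OMgp, and signals across the membrane through LINGO-1 with p75 (*Ngfr*) or TROY (*Tnfrsf19*) to the cytoskeleton. The pathway is known for limiting axon growth and synaptic plasticity in the adult brain.

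The endogenous promoters of 2 members are shown as a receptor and a ligand: *Rtn4r* was higher in every group with the transgene on, and *Mag*, the ligand made by myelinating oligodendrocytes, was not called and had a low signal. Each line holds 250 bases before a RefSeq start (GRCm38.p6), read 5′ to 3′ on the gene's strand, at chr16:18127392-18127641 (+) for *Rtn4r* and chr7:30914923-30915172 (−) for *Mag*. Capitals mark the GC box letters GGGCGG or CCGCCC, which include overlapping copies.
Rtn4r: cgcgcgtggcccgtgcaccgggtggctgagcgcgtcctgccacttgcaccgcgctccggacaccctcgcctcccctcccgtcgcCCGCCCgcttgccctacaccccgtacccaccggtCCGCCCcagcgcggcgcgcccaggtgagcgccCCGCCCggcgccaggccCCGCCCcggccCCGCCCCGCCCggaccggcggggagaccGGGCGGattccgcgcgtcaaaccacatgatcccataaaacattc
Mag: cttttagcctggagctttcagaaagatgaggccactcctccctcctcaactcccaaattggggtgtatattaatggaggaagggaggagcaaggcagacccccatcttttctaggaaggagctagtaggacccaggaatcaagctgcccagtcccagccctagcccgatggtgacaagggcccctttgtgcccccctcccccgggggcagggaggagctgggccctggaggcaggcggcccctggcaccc

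The *Rtn4r* window is 77.2% G or C and holds 38 CpG and 7 GC boxes. The *Mag* window is 61.2% G or C and holds 3 CpG and no GC box. Among 32851 promoter windows of the same length, the median number of CpG was 6, 98.1% had fewer CpG than *Rtn4r*, 29.0% had fewer than *Mag*, and 32.7% held a GC box on either strand. The letters TATAAA, searched on both strands, are in neither window and in 12.37% of all windows. RefSeq's table held promoters for 7 of the 9 members, 13 windows in all, of which 8 held a GC box. The transgene is driven from pTRE and not from this *Rtn4r* promoter.

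*Rtn4r* passed the test in set 1 and in experiment 2 when the transgene was on. It did not pass in set 3, where its difference was as large and its unadjusted limma p was lower. Over the 3 sets its level was 4.86-fold that of the monotransgenic mice. No other member passed the test in any comparison. At an unadjusted limma p under 0.05, *Rtn4r* included, the members numbered 2 against the diet, 2 against monotransgenic mice of set 1, 2 in experiment 2, 1 in set 3 and 1 over the sets, of 15 each. The shares of all probe sets were 4.72%, 6.86%, 15.9%, 4.63% and 11.8%. In set 1 the intensities of *Rtn4r* (probe set 1419732_at, chromosome 16) were 1469, 329.3 and 254 with doxycycline removed, 111, 87.0 and 73.1 under the doxycycline diet, and 63.8, 98.4 and 79.0 for monotransgenic mice. All 3 arrays with doxycycline removed lay above all others of the set, but 1 of them lay far above its 2 companions. This array also read 1205 for *Gfap*, an astrocyte gene, against 304 and 375 in its companions and at most 469 in the rest of the set, and its mean deviation over 5 astrocyte markers was 0.42, against -0.24 and -0.10. The part of these in *Rtn4r* was not tested. In experiment 2 the bitransgenic arrays read 605, 365 and 753, and the monotransgenic arrays 113, 185 and 123. In set 3 the bitransgenic arrays read 672, 755 and 562, and the monotransgenic arrays 133, 112 and 85.9. The groups did not overlap in either set. Across the study the 9 arrays counted as transgene on, those of set 3 included, lay between 254 and 1469. The 9 arrays of monotransgenic mice lay between 63.8 and 185.

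**Figure D1:**
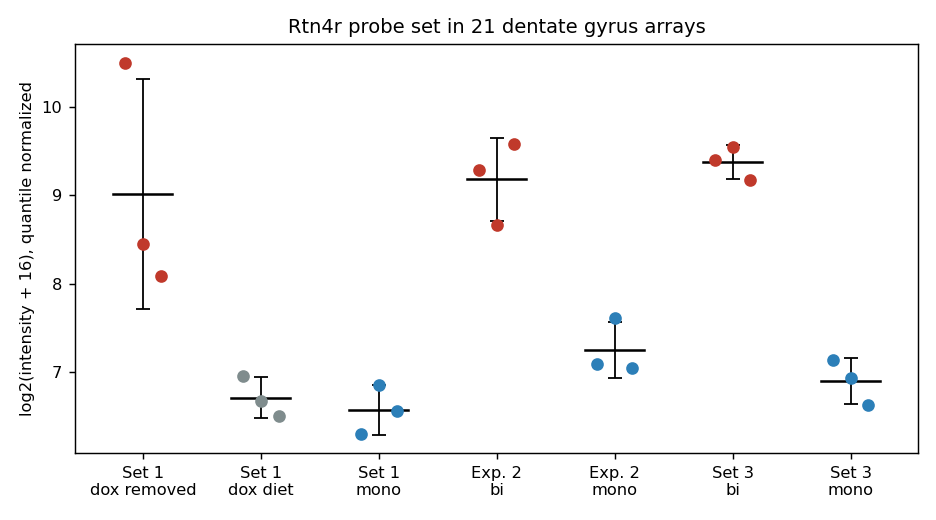
Normalized log2(intensity + 16) of the *Rtn4r* probe set (vertical axis) in the 7 groups (horizontal axis); points are arrays, lines are group means and bars are SD (n = 3), with red for the transgene on, grey for the doxycycline diet and blue for monotransgenic. The 3 red groups have means of 9.01, 9.18 and 9.37, and the highest of the other groups, monotransgenic mice of experiment 2, has a mean of 7.25.

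Differences are given on the log2(intensity + 16) scale with standard errors from a limma fit over all arrays, and adjusted p-values are Benjamini-Hochberg over all 27022 probe sets. With doxycycline removed, *Rtn4r* was 2.30 ± 0.39 above the diet group (adjusted p = 0.0486) and 2.44 ± 0.39 above monotransgenic mice (adjusted p = 0.0336). The shares of all probe sets called in these comparisons were 0.0185% and 0.0333%. In experiment 2 the difference was 1.93 ± 0.39 (adjusted p = 0.035), where 0.311% of probe sets were called. In set 3 it was 2.47 ± 0.39 with an adjusted p of 0.0889, so it was not called, and neither was any other probe set (0%). At an unadjusted p under 0.05, set 3 held 1250 probe sets in all, of which 1 was a member, *Rtn4r*, with the lowest p of all. The unadjusted limma p of *Rtn4r* was 3.29e-06 in set 3 and 7.77e-05 in experiment 2. In set 1 it was 9e-06 against the diet and 3.99e-06 against monotransgenic mice. The adjusted p also depends on how many other probe sets have a small p in the same comparison. The mean of the 3 sets was 2.28 ± 0.23 (95% interval 1.81 to 2.76, adjusted p = 1.9e-05), and 0.0703% of probe sets were called. An exact two-sided permutation test of *Rtn4r* gave p = 0.1 for each within-set comparison with the transgene on, the smallest that 20 labelings of 3 against 3 allow. The same exact permutation within all 3 sets together gave p = 0.00025, the smallest that 8000 labelings allow.

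In set 1 the call was lost in several fits with 1 array left out. The difference fell well below that of all arrays only without replicate 1 of the doxycycline-removed group. Against the diet group, *Rtn4r* was 1.55 higher without replicate 1 of the doxycycline-removed group, the array at 1469 (adjusted p = 0.0673 in limma), and 2.58 without replicate 2 (0.139). It was 2.42, 2.28 and 2.19 higher without replicates 1, 2 and 3 of the diet group, with adjusted p of 0.195, 0.16 and 0.223. Against monotransgenic mice the call was also lost without replicate 1 of the doxycycline-removed group (1.70, adjusted p = 0.0609) and without replicates 1, 2 and 3 of the monotransgenic group (2.30, 2.58 and 2.43, adjusted p = 0.186, 0.166 and 0.0905). In experiment 2 it was lost without monotransgenic replicate 2 (2.11, adjusted p = 0.0505) or 3 (1.83, 0.101) and without bitransgenic replicate 3 (1.73, 0.109). In set 3 *Rtn4r* passed without monotransgenic replicate 2 (2.49, adjusted p = 0.0253).

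On the doxycycline diet *Rtn4r* lay near the level of mice without tTA. Its difference from monotransgenic mice was 0.14 ± 0.39, with a 95% interval of -0.68 to 0.96 (limma adjusted p = 1; exact permutation p = 0.5), and 0.0037% of all probe sets were called. The interval leaves room for a leak of less than 1 log2 unit. The size of the rise with the transgene on did not differ past the test between sets. Set 1 minus experiment 2 was 0.51 ± 0.56, set 1 minus set 3 was -0.03 ± 0.56 and experiment 2 minus set 3 was -0.54 ± 0.56, with intervals up to 1.70 in size and limma adjusted p of 0.822, 1 and 0.777. In these 3 differences 0.0074%, 0% and 0.0074% of probe sets were called, and 2417, 1060 and 2306 had an unadjusted p under 0.05. By mean log2 level the groups ran from set 3 bitransgenic (9.37), experiment 2 bitransgenic (9.18) and set 1 doxycycline removed (9.01) to experiment 2 monotransgenic (7.25), set 3 monotransgenic (6.90), set 1 diet (6.71) and set 1 monotransgenic (6.57). Of the 6 pairs of neighbours in this order, the arrays stood apart only between set 1 doxycycline removed and experiment 2 monotransgenic. The sequence of the probe set was not used here, so how far it reads the transgene, the endogenous gene or both was not tested.

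No other member passed the test with the transgene on. Over the 3 sets, their 14 probe sets past the filter had differences from -0.21 to 0.15, with 95% intervals that reached from -0.59 to 0.58 and adjusted p from 0.472 to 0.983. Their median was -0.03, against 0 over all probe sets, and their median size was 0.14, against 0.11. Of all 15 member probe sets, 4 had the same sign in the 3 sets (*Rtn4r*, *Rtn4rl1* 1455664_at, *Rtn4rl2* and *Omg*), against 29.5% of all probe sets. In this bulk tissue, fewer cells of a type and less RNA per cell cannot be told apart.

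**Figure D2:**
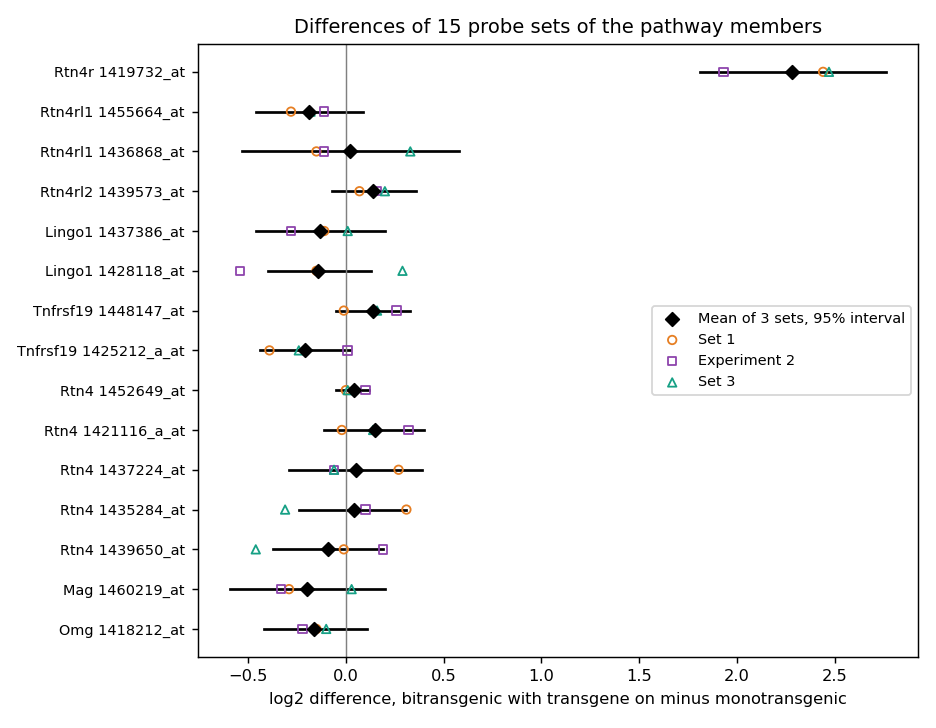
Log2 differences (horizontal axis) of the 15 member probe sets past the filter, one to a row; filled diamonds with lines are the mean of the 3 sets with its 95% interval, and open symbols are the single sets, all as transgene on minus monotransgenic. *Rtn4r* lies at 2.28, and every other diamond lies between -0.21 and 0.15.

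The receptor relatives came first. NgR3 (*Rtn4rl1*) shares with NgR1 the binding of chondroitin sulfate proteoglycans, and its probe set 1455664_at read 614, 575 and 506 with doxycycline removed, 689, 657 and 837 under the diet, and 567, 781 and 707 for monotransgenic mice of set 1. The doxycycline-removed arrays lay below all diet arrays and overlapped the monotransgenic ones. In experiment 2 it read 630, 398 and 527 in bitransgenic and 437, 503 and 728 in monotransgenic mice, and in set 3 it read 539, 666 and 816 against 945, 504 and 884. Both sets overlapped. The difference was -0.36 ± 0.23 against the diet (limma adjusted p = 1) and -0.19 ± 0.13 over the 3 sets (95% interval -0.46 to 0.09, limma adjusted p = 0.606). The second probe set, 1436868_at, was -0.44 ± 0.46 against the diet, again with no overlap, and 0.02 ± 0.27 over the sets. Deviations from the group means of the 2 probe sets correlated at 0.74 over 21 arrays, which share each array's RNA and scaling.

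NgR2 (*Rtn4rl2*, 1439573_at), a receptor for MAG, was the steadiest of the receptors across the 7 groups, with group means within 0.25 log2 of each other. In set 1 it read 227, 225 and 233 with doxycycline removed, 230, 202 and 243 under the diet, and 206, 227 and 229 for monotransgenic mice. These 9 arrays overlapped throughout. Bitransgenic against monotransgenic arrays read 303, 174 and 226 against 164, 290 and 199.5 in experiment 2, and 236, 260.1 and 311 against 240.4, 237 and 221 in set 3. The difference over the sets was 0.14 ± 0.10 (95% interval -0.07 to 0.36, limma adjusted p = 0.612), so a rise above 0.36, well below that of *Rtn4r*, lay outside the interval.

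Among the co-receptors, LINGO-1 (*Lingo1*), the leucine-rich repeat partner of the receptor complex, had its lowest group mean on the doxycycline diet by 1437386_at and in bitransgenic mice of experiment 2 by 1428118_at (log2 5.21, against 5.29 on the diet). The first probe set read 123, 158 and 116 on the diet, 174, 242 and 214 in monotransgenic mice and 266, 139.7 and 175 with doxycycline removed. The diet arrays lay below all monotransgenic arrays, and those with doxycycline removed overlapped both. The second probe set, 1428118_at, read 32.3, 19.9 and 22.3 under the diet, and 50.3, 36.3 and 34.0 for monotransgenic mice, also without overlap. Diet minus monotransgenic was -0.61 ± 0.27 and -0.50 ± 0.22 for the 2 probe sets, with unadjusted limma p of 0.0378 and 0.0353 and adjusted p of 1 for both. Neither difference was called. An unadjusted p under 0.05 was held by 3 of the 15 member probe sets in this comparison, the third being *Tnfrsf19* 1425212_a_at, and by 3.75% of all probe sets.

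With the transgene on, the values of the 2 *Lingo1* probe sets varied between sets, with no call. In experiment 2 bitransgenic against monotransgenic arrays read 174, 176 and 129 against 111, 217 and 365 for 1437386_at, and 31.8, 7.97 and 22.6 against 41.8, 43.6 and 41.5 for 1428118_at. The second did not overlap. Its array at 7.97, bitransgenic replicate 2, had the highest actin 3′ to 5′ ratio of the study (log2 6.24). This array was also the lowest of its group for *Omg* (95.3), *Mag* (3.98), *Rtn4rl1* 1455664_at (398), *Rtn4r* (365), *Rtn4rl2* (174) and *Tnfrsf19* 1448147_at (432). It was the highest of its group for *Rtn4* 1452649_at (11514) and *Lingo1* 1437386_at (176). Without it the differences in experiment 2 were -0.26 for *Lingo1* 1428118_at, 0.15 for *Omg*, 0.03 for *Mag* and 0.04 for *Rtn4rl1* 1455664_at, with no call. Leaving out the lowest array of a group raises the mean of that group in any case. The array of the next highest ratio, monotransgenic replicate 1 (5.84), stayed in. It was the lowest of its group for *Lingo1* 1437386_at (111) and *Rtn4rl1* 1455664_at (437), and the highest for *Rtn4* 1452649_at (12704). With all arrays, 1428118_at was at -0.54 ± 0.22 in experiment 2 (limma adjusted p = 0.251) and at 0.29 ± 0.22 in set 3, and these differed by -0.83 ± 0.32, with an unadjusted p of 0.0164 and an adjusted p of 0.556. In set 3, 1437386_at read 201, 215 and 209.6 in bitransgenic and 248, 197 and 183 in monotransgenic mice, which overlapped. Over the sets the probe sets gave -0.13 ± 0.16 and -0.14 ± 0.13. Their deviations from the group means correlated at -0.46 over 21 arrays, so they did not report the same variation.

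TROY (*Tnfrsf19*), a TNF receptor family member that can stand in for p75, was read well by 1448147_at. In set 1 it gave 363, 477 and 411 with doxycycline removed, 495, 425 and 486 under the diet, and 414, 401 and 455 for monotransgenic mice, and all 3 groups overlapped. Bitransgenic arrays of experiment 2 read 444, 432 and 499 and lay above the monotransgenic 423, 382 and 342, a difference of 0.26 ± 0.16 (limma adjusted p = 0.421). In set 3 it read 479, 359 and 371 against 367, 412 and 298, which overlapped, and the difference over the sets was 0.14 ± 0.09 (limma adjusted p = 0.576). The dimmer 1425212_a_at went the other way over the sets, at -0.21 ± 0.11 (95% interval -0.44 to 0.02, limma adjusted p = 0.472). In set 1 it read 26.1, 36.2 and 27.8 with doxycycline removed, 27.2, 32.3 and 27.2 under the diet, and 59.8, 34.0 and 45.3 for monotransgenic mice. Only the diet arrays lay below all monotransgenic ones, by 0.49 on the log2 scale with an unadjusted limma p of 0.0172 and an adjusted p of 1. Deviations of the 2 probe sets correlated at 0.05 over 21 arrays.

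The neurotrophin receptor p75 (*Ngfr*) gave values in the lowest part of the scale. In the adult forebrain it is best known from cholinergic neurons of the basal forebrain, whose axons reach the dentate gyrus while their cell bodies lie elsewhere. Its brightest probe set, 1454903_at, ran from 1.18 to 30.2 over 21 arrays with a median of 8.05, and 1421241_at and 1450177_at from 0.42 to 7.67 and from 0.35 to 7.61. The filter limit corresponds to an intensity of 13.8. Detection calls were not used here, so these values are low signals and not proof of absence. In a fit without the filter the 3 probe sets had differences over the sets of -0.12 ± 0.18, -0.04 ± 0.07 and 0.02 ± 0.06, with limma adjusted p from 0.89 to 0.946 over 45037 probe sets. The pseudocount compresses differences at such levels. *Chat*, the enzyme that makes acetylcholine and marks cholinergic cell bodies, ran from 2.68 to 27.0.

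**Figure D3:**
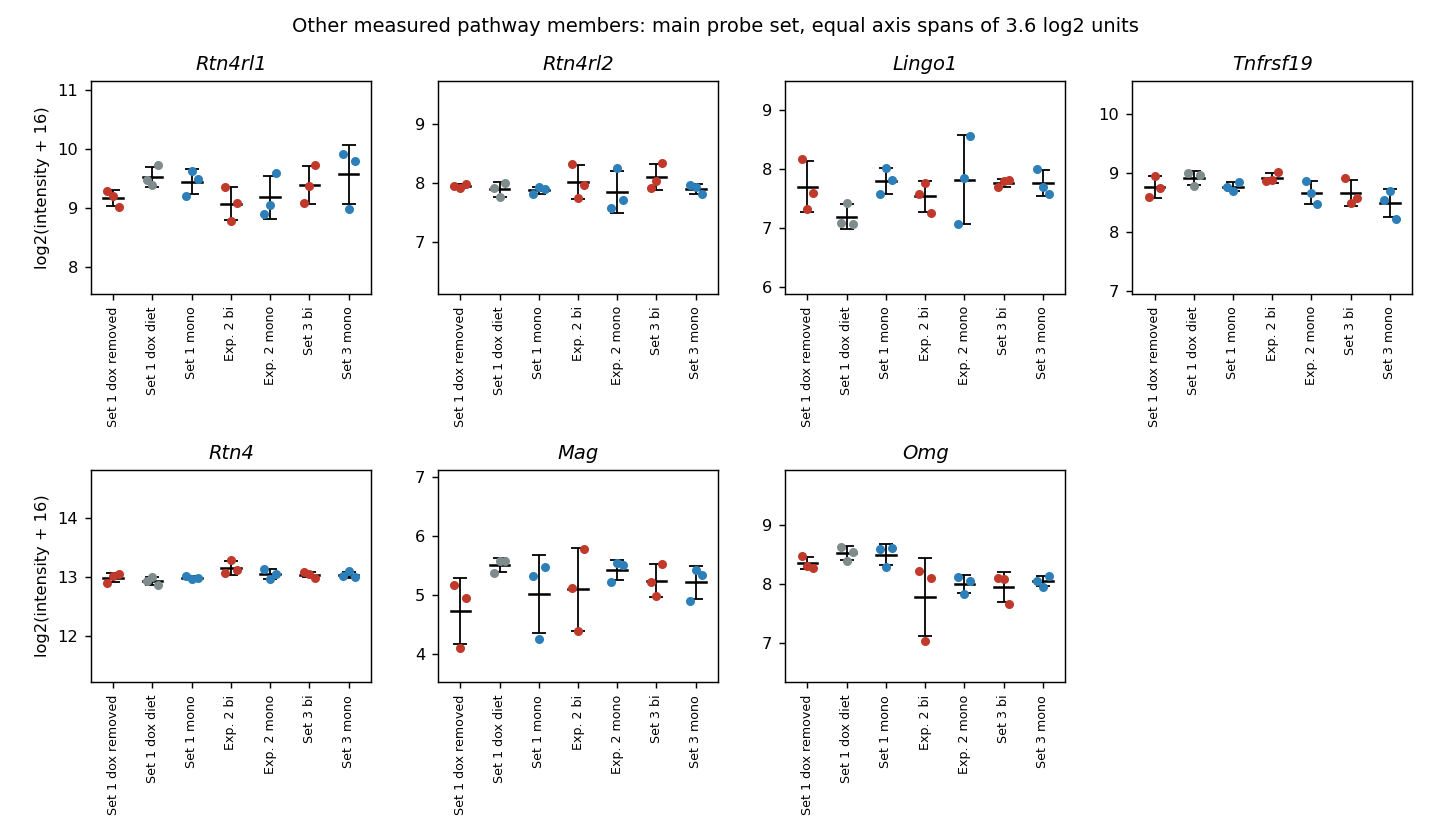
Normalized log2(intensity + 16) of the brightest probe set of 7 other members (vertical axes, each spanning 3.6 log2 units) in the 7 groups; points are arrays, lines are group means and bars are SD (n = 3), coloured as transgene on (red), diet (grey) and monotransgenic (blue). *Mag* has the lowest group mean, 4.74, with doxycycline removed, and *Omg* is lower in experiment 2 and set 3 than in set 1.

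Among the ligands, Nogo (*Rtn4*) is a reticulon of the endoplasmic reticulum whose long form, Nogo-A, also lies on neurons and oligodendrocytes. Its probe set 1452649_at read 7884, 8374 and 8721 with doxycycline removed, 7345, 7445 and 6886 under the diet, and 8995, 8102 and 6703 for monotransgenic mice of set 1. The first 2 groups did not overlap as deposited, although they did after normalization. In experiment 2 it read 10259, 11514 and 9620 against 12704, 9768 and 9895, and in set 3 it read 7005, 6412 and 7853 against 7835, 7177 and 6609. Bitransgenic and monotransgenic arrays overlapped in both sets. The difference over the sets was 0.04 ± 0.04 (95% interval -0.05 to 0.12, limma adjusted p = 0.79), the narrowest interval of the members. Quantile normalization holds down the spread of such a bright probe set, and so this interval. In monotransgenic mice of set 1 its log2 SD was 0.02 after normalization, with deposited values from 6703 to 8995.

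The higher deposited values of 1452649_at in experiment 2 depended on the scaling. Between monotransgenic groups, experiment 2 minus set 3 was 0.02 ± 0.07 (limma adjusted p = 0.957) after quantile normalization. It was 0.57 on the deposited scale (adjusted p = 0.0205) and 0.60 when arrays were centred on the 75th percentile (adjusted p = 0.0466). The median difference of all probe sets was 0.03 and 0.06 in these alternatives, against -0.01 after quantile normalization. The probe set stood at percentile 99.88 of all by mean, in the part of the scale where quantile normalization gives all arrays the same top values. Against set 1, experiment 2 was 0.06 higher after quantile normalization, 0.44 on the deposited scale and 0.41 by the 75th percentile, and none of these passed.

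The other 4 probe sets of *Rtn4* read it at lower intensities, and none was called over the sets, where they ran from -0.09 to 0.15. The dimmest, 1439650_at, read 27.2, 40.7 and 49.2 in monotransgenic mice of set 1, 85.4, 68.3 and 54.8 in those of experiment 2 and 84.5, 83.5 and 53.9 in those of set 3. Both of the latter groups lay above all of set 1. The differences from set 1 were 0.59 ± 0.23 (limma adjusted p = 0.233) and 0.68 ± 0.23 (0.243). For 1435284_at the same differences were 0.54 ± 0.23 (0.26) and 0.36 ± 0.23 (0.609). In these comparisons 0.836% and 0.459% of all probe sets were called, and 0.533% between experiment 2 and set 3, with no member among them. Correlations of deviations between pairs of *Rtn4* probe sets ran from -0.20 to 0.70 over 21 arrays.

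**Figure D4:**
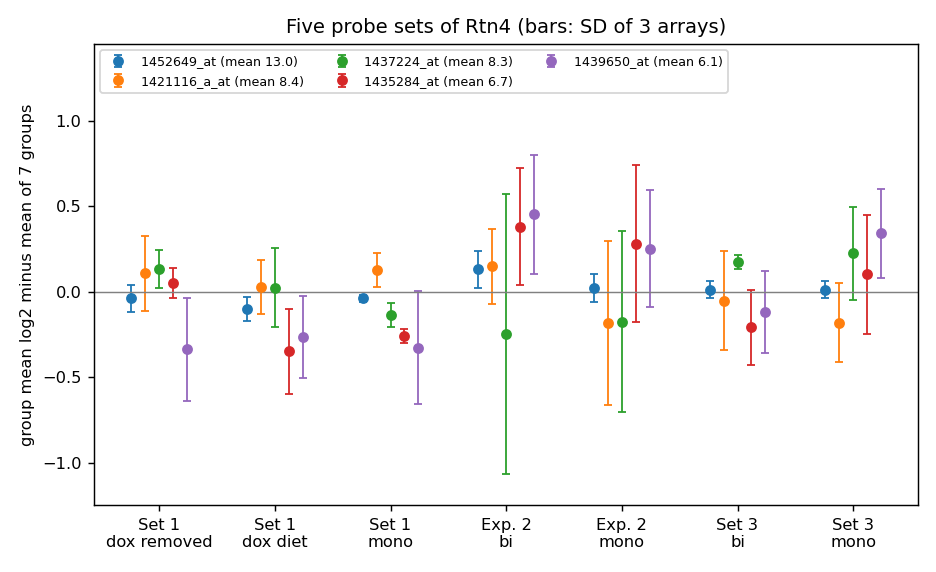
Group means of the 5 *Rtn4* probe sets (vertical axis, normalized log2 minus the mean of the 7 group means, which the legend gives) in the 7 groups, with bars for SD (n = 3). The brightest, 1452649_at, spans 0.23 log2 over the groups, and 1439650_at, the dimmest, spans 0.79.

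MAG (*Mag*, 1460219_at), a sialic acid binding protein of the inner myelin membrane, was read close to the filter limit. With doxycycline removed it gave 19.0, 1.39 and 14.7, under the diet 27.6, 33.5 and 31.4, and in monotransgenic mice 25.9, 3.25 and 29.2. The doxycycline-removed arrays lay below all diet arrays but not below all monotransgenic ones. The differences in the limma fit were -0.77 ± 0.33 (95% interval -1.46 to -0.08, unadjusted p = 0.0295, adjusted p = 1) and -0.29 ± 0.33 (adjusted p = 0.951). Bitransgenic against monotransgenic arrays read 18.7, 3.98 and 34.3 against 25.4, 37.5 and 32.7 in experiment 2, and 18.4, 13.1 and 30.2 against 13.3, 26.8 and 21.9 in set 3. Both overlapped, and the difference over the sets was -0.20 ± 0.19 (limma adjusted p = 0.73). Its 95% interval was -0.59 to 0.20. The arrays at 1.39, 3.25 and 3.98 are among those under the filter limit of 13.8, where the pseudocount compresses differences.

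OMgp (*Omg*, 1418212_at), a lipid-anchored protein of neurons and oligodendrocytes whose gene lies within *Nf1*, was not called in any comparison. It read 332, 296 and 292 with doxycycline removed, 379, 318 and 359 under the diet, and 364, 295 and 382 for monotransgenic mice of set 1. These arrays overlapped. In experiment 2 it read 278, 95.3 and 247 in bitransgenic and 241, 215 and 254 in monotransgenic mice, and in set 3 it read 270.4, 269 and 187 against 256, 240.6 and 278. The differences with the transgene on were -0.15 ± 0.22, -0.22 ± 0.22 and -0.10 ± 0.22 in the 3 sets, with a mean of -0.16 ± 0.13 (limma adjusted p = 0.672). Monotransgenic mice of experiment 2 and of set 3 lay below all those of set 1, by 0.50 and 0.45 on the log2 scale, and neither difference was called (limma adjusted p = 0.297 and 0.483).

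Members whose groups did not overlap were counted beside the share of all probe sets. With doxycycline removed, 5 of the 15 member probe sets did not overlap the diet group (*Rtn4r*, both of *Rtn4rl1*, *Rtn4* 1435284_at and *Mag*), against 14.7% of all. Against monotransgenic mice 3 did not overlap (*Rtn4r*, *Rtn4* 1437224_at and 1435284_at), against 19.2%. Diet and monotransgenic mice did not overlap for 3 (both of *Lingo1* and *Tnfrsf19* 1425212_a_at), against 13.6%. In experiment 2 the number was 3 (*Rtn4r*, *Lingo1* 1428118_at and *Tnfrsf19* 1448147_at), against 10.2%, and in set 3 it was 1, *Rtn4r*, against 13.9%. The comparisons within set 1 share arrays.

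Listed as other genes of the pathway were further receptors of Nogo, partners of the complex and proteins that bind NgR1 or its co-receptors. The list also held other reticulons and enzymes that shed the receptor or its partners. Of these 21 genes, 17 were tested. None was called within a set or over the sets, where 5 were higher and 12 lower, with a median of -0.09 against 0 over all probe sets. These numbers are for the listed genes alone; with the signalling genes that are not reported here, the median lay nearer 0. At an unadjusted limma p under 0.05 there were 2 over the sets, *Lingo3* and *Bace1*, 1 against monotransgenic mice of set 1, 4 in experiment 2 and 1 in set 3, each of 17, against 11.8%, 6.86%, 15.9% and 4.63% of all probe sets. The largest difference was that of *Lingo3*, a relative of LINGO-1, at 0.51 ± 0.16 (limma adjusted p = 0.161). The lowest was *Ptprs*, a receptor for chondroitin sulfate proteoglycans, at -0.23 ± 0.13 (limma adjusted p = 0.499). All 6 genes listed as binding NgR1 or its co-receptors were lower over the sets, from -0.22 to -0.08, with no call. Among them were the LGI1 gene *Lgi1* (-0.11 ± 0.09) and the gene of olfactomedin 1, *Olfm1* (-0.13 ± 0.08). The reticulons *Rtn1*, *Rtn2* and *Rtn3* lay at -0.01, 0.05 and 0.02. Of the shedding enzymes, *Adam17* was at -0.09 ± 0.12, *Bace1* at -0.18 ± 0.09 and *Adam10* at 0.03 ± 0.09 over the sets, and in experiment 2 they were at -0.56, -0.61 and 0.37, with no call.

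Markers of cell types in the tissue were read beside the members. The dissected tissue gave *Prox1* and *Calb1*, markers of dentate granule cells, from 318 to 951 and from 3755 to 7492 over all arrays. Of 8 granule cell markers 7 were lower over the sets (median -0.34, none called). An unadjusted limma p under 0.05 was held by 6 of the 8, against 11.8% of all probe sets. *C1ql2* was at -1.24 ± 0.34 (limma adjusted p = 0.127). Its monotransgenic arrays alone ran from 136 to 1234 in experiment 2 and from 135 to 1132 in set 3. On the diet 6 of the 8 granule cell markers were also lower than in monotransgenic mice of set 1 (median -0.25, none called). There 3 of the 8 had an unadjusted limma p under 0.05, against 3.75% of all probe sets. Doxycycline removed against the diet had 5 of the 8 lower (median -0.16) and 2 under 0.05, against 4.72% of all probe sets. *Ogn*, a marker of meninges and fibroblasts, was at -2.61 over the sets (limma adjusted p = 0.0176). Of the 4 tested genes of its list it was the only call (median -0.29, 1 gene higher). Mean intensities of *Ogn* in set 1 were 20.9 with doxycycline removed, 17.3 on the diet and 640 in monotransgenic mice. The diet group, with the transgene held off, was thus also low. Monotransgenic arrays of *Ogn* ran from 79.6 to 525 in experiment 2 and from 41.2 to 824 in set 3. All 10 tested oligodendrocyte markers were lower over the sets (median -0.16, from -0.85 to -0.02, none called). At an unadjusted limma p under 0.05 there were 2 of the 10, against 11.8% of all probe sets. All 10 were also lower on the diet than in monotransgenic mice of set 1 (median -0.24). Their summed intensity ran from 3798 to 4522 with doxycycline removed, 3361 to 5150 on the diet and 4140 to 5586 in monotransgenic mice. *Mbp*, the major myelin protein gene, ran from 2108 to 3882 over all arrays and *Mog* from 1.63 to 16.9, below the filter. Deviations of *Mag* and *Omg* from their group means correlated with the mean of this list at -0.01 and 0.04 over 21 arrays (-0.27 and -0.04 without experiment 2). The other members ran from -0.41 (*Rtn4*) to 0.42 (*Rtn4rl1*), and from -0.48 to 0.60 without experiment 2. The part of these markers in the values of *Mag*, *Omg* and *Lingo1* was not tested.

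Experiment 2 stood apart from the other sets in ways that touch each of its values. *Xist* read 2361 to 4750 there and at most 33.7 in sets 1 and 3, and *Eif2s3y*, a Y-linked gene, at most 9.84 there and at least 395 elsewhere, so sex and set cannot be told apart. The log2 ratio of 3′ to 5′ actin probe sets, which rises as RNA degrades, was 4.79 to 6.24 in experiment 2, 4.55 to 5.04 in set 1 and 4.11 to 4.56 in set 3. The arrays of experiment 2 held 51.4% of the residual variance of the fit. The like ratio of Gapdh was 4.42 to 4.70 in set 3 and 4.04 to 4.65 in experiment 2. In set 1 it was 3.89 to 4.00 on the diet, below the 4.12 to 4.29 with doxycycline removed and the 4.09 to 4.32 of monotransgenic mice. With this ratio as a covariate, *Rtn4r* was 2.19 above the diet group (limma adjusted p = 0.305), and diet minus monotransgenic was -0.28 and -0.78 (limma adjusted p = 0.961 and 0.849) for *Lingo1* 1437386_at and 1428118_at.

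Genes most like each member were sought by the correlation of deviations from group means over 21 arrays, among 12498 other genes. For *Rtn4r* they were *Kdm5c*, *Ppargc1b* and *Ttc16*, each at r = 0.86 (0.90, 0.90 and 0.91 without experiment 2). Their Spearman values were 0.61, 0.79 and 0.69, by which *Kdm5c* ranked 212. The log2 SD of *Rtn4r* was 1.30 in set 1 with doxycycline removed and 0.19 to 0.47 in the other groups. Its r values therefore rest mostly on that group, which holds the outlying array. By the 7 group means the closest genes were *Arhgap42* (0.981), *Plcxd1* (0.979) and *Pde4b* (0.966). Leading genes for the others were *Cdh13* for *Rtn4rl1* (0.90), *Poldip3* for *Rtn4rl2* (0.91), *Pwwp3a* for *Lingo1* (0.87), *Cntnap2* for *Tnfrsf19* (0.81), *Rab11fip2* for *Rtn4* (0.93), *Slc19a1* for *Mag* (0.81) and *Sparcl1* for *Omg* (0.94). These are the highest of many correlations over points that share array quality, and without experiment 2 several were lower, such as 0.68 for *Pwwp3a* and 0.78 for *Poldip3*. Between members, deviations of *Rtn4r* correlated with those of the others from -0.55 (*Rtn4*) to 0.33 (*Lingo1*).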

How the data were processed

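The deposited table holds one intensity per probe set and array, scaled by the authors so that each array's mean without the lowest and highest 2% was 150, as the values show, and neither labels nor file name the tool. Control probe sets (64) were left out. Values were transformed as log2(intensity + 16), quantile normalized, and the upper 60% by mean kept (limit 4.90). Each probe set was a feature in limma 3.58.1 (R 4.3.3), with a coefficient per group, a variance trend, 14 residual degrees of freedom and a threshold of 0.05 after Benjamini-Hochberg adjustment. Errors are standard errors and tests are two-sided. The script was tested on simulated data. Names come from the platform annotation and promoters from RefSeq. Named genes were all members, up to 3 genes of lowest p from each list, and the 3 genes most like each member; further genes named as markers or at the end of a range were picked after their values were seen. Members and lists were chosen with earlier results of these data known. Lists of CA1 and CA3, other region, astrocyte, neurogenesis, oligodendrocyte precursor, and Schwann and vascular markers were also measured, and none had a call over the sets. The alternatives were other scalings, pseudocounts, filters, fits, RNA quality terms and arrays left out. A further list of signalling genes is not reported here.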

Additional observations from a re-analysis of the deposited data

How the results depend on the processing

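The count of member probe sets called was 1 (*Rtn4r*) or 0. With doxycycline removed against the diet it went from 1 to 0 on the deposited scale, with a pseudocount of 64, with no filter, with the upper 40% of probe sets, without the variance trend and with the Gapdh 3′ to 5′ ratio as covariate; against monotransgenic mice it went to 0 with the Gapdh covariate. In experiment 2 it went to 0 with no filter, with 1 probe set a gene, in the set alone and with the Gapdh covariate. The difference of *Rtn4r* in the lost calls was 1.91 with the pseudocount of 64 and 2.19 to 2.44 otherwise in set 1, and 1.93 to 2.04 in experiment 2. In set 3 the count went from 0 to 1 in the set alone, with array weights and without the 2 arrays of highest actin ratio. Between monotransgenic mice of experiment 2 and set 3 it went from 0 to 1, *Rtn4* 1452649_at, on the deposited scale and with 75th percentile scaling. Leaving out 1 array at a time gave counts from 0 to 1 in each of the 4 comparisons within sets that have the transgene on. The cause was not tested. Over the 3 sets *Rtn4r* was called in all alternatives run, at 1.91 to 2.46, and with each array left out, at 2.03 to 2.44. Of 3687 member values under alternatives, 0 that were called reversed, 23 weakened, 6 strengthened and 274 uncalled ones changed sign. The exact permutation p of *Rtn4r* under other scalings and pseudocounts, chosen after seeing the data, says nothing about stability, since it is at its smallest possible value with the transgene on. No paired analysis was possible because replicate numbers follow the order of samples and the labels do not say what the number shared by some titles of set 3 marks; with that number as a factor, *Rtn4r* was 2.51 higher (limma adjusted p = 0.704) and 0 members were called. The number of arrays limits what can be seen, and *Ngfr* and *Mag* lie where the signal is low.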
